A study of Mus musculus with 275 samples.

Results

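Striatal transcripts were compared between mice of the F2 selection bred for a High (responsive) or a Low (non-responsive) cataleptic response to haloperidol. The animals were chosen by their labels, genetic background F2 and haloperidol response High or Low, which gave 83 of the 275 arrays of the series, 41 High and 42 Low, with 1 array per animal. The F2 lines began from an intercross of the inbred strains C57BL/6J and DBA/2J, and the animals came from the third selected generation. Striatal total RNA was hybridised to Illumina bead arrays. The labels give no age, sex, litter or slide for these mice, and it is not known here whether the arrayed animals had themselves received the drug. Each direction of selection was 1 breeding line, so the effects of selection, of chance fixation of alleles and of family cannot be told apart in any High minus Low difference. The p-values measure the spread between animals, some of which may be siblings.

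Haloperidol blocks D2-like dopamine receptors, which in the striatum are carried mainly by the spiny projection neurons of the indirect pathway. Catalepsy is the failure to correct an imposed posture that follows this block. Breeding from the extremes of a segregating cross drives the alleles of nearby loci apart as blocks, so that neighbouring genes can differ together between the lines.

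Levels are given on the deposited log2-like scale, on which F2 values ran from 8.59 to 15.93. Probes of taste, olfactory and vomeronasal receptors, which the striatum should lack, gave each array a background at their percentile 95. Of 25697 probes 15300 were above it in 25% or more of the F2 arrays and were taken as expressed. The share of all probes above that background ran from 39.9% to 62.1% per array, with a median of 54.7%. A gap in the sex-linked transcripts placed 40 High arrays with either Y-linked or Xist transcripts high (19 and 21) and all 42 Low arrays likewise (21 and 21). The exception, High_651, was low for both, with Xist at 9.003 and Eif2s3y at 9.15. High_651 was also an outlying array. The mean correlation of an F2 array with the others had a median of 0.986, and 3 arrays lay more than 2.5 SD below the mean, at a limit of 0.959. These were High_651 (0.933), Low_879 (0.935) and Low_757 (0.937), and the lowest of the rest was at 0.978. No 2 arrays held identical values.

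The lines differed in 141 of the 15300 expressed probes, 0.922% of those tested (limma, false discovery rate 0.1). High animals had higher levels of 54 (0.353%) and lower levels of 87 (0.569%). Most differences were small. The median absolute log2 difference of the 141 was 0.14, only 15 exceeded 0.30, and over all expressed probes the median difference was −0.0007. An unadjusted p under 0.05 was found for 1340 probes (8.76%), and 48.95% of all expressed probes had a positive difference. Without the 3 outlying arrays, 219 probes differed (1.43%), 97 higher and 122 lower, and 135 of the 141 were among them, all in the same direction. Leaving out High_651 alone gave 232 probes, 139 of the 141 among them. The 6 that were lost without all 3 outlying arrays were Eml1, Ppil3, Atg16l1, Klk8, Ambra1 and Olfr352. Among the 84 gained without all 3 were Vps36, which sorts ubiquitinated receptors to the lysosome (0.11, SE 0.02, adjusted p = 0.00896), and Arid2, a chromatin remodelling subunit (−0.16, SE 0.04, adjusted p = 0.0100).

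The largest difference was in Thumpd1, which binds tRNA and serves in the acetylation of tRNA cytidine. Its level ran from 8.82 to 11.34 in High animals, with a median of 10.36. In Low animals it ran from 8.92 to 11.73, with a median of 11.30. High animals were 1.15 lower on the log2 scale (SE 0.16, 2.22-fold, limma adjusted p = 4.14e-06), and 40 of 41 lay below the Low median. The values did not spread evenly but fell into 3 separate levels, divided by empty gaps of 1.26 and 0.32 when the next largest gap was 0.16. The bottom level (8.82 to 9.02) held 19 High and 2 Low animals, none of them above background. The middle level (10.28 to 10.83) held 21 High and 16 Low animals. The top level (11.15 to 11.73) held 1 High and 24 Low animals. Both lines were present at every level, and the difference between them was one of how many animals lay at each.

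**Figure D1:**
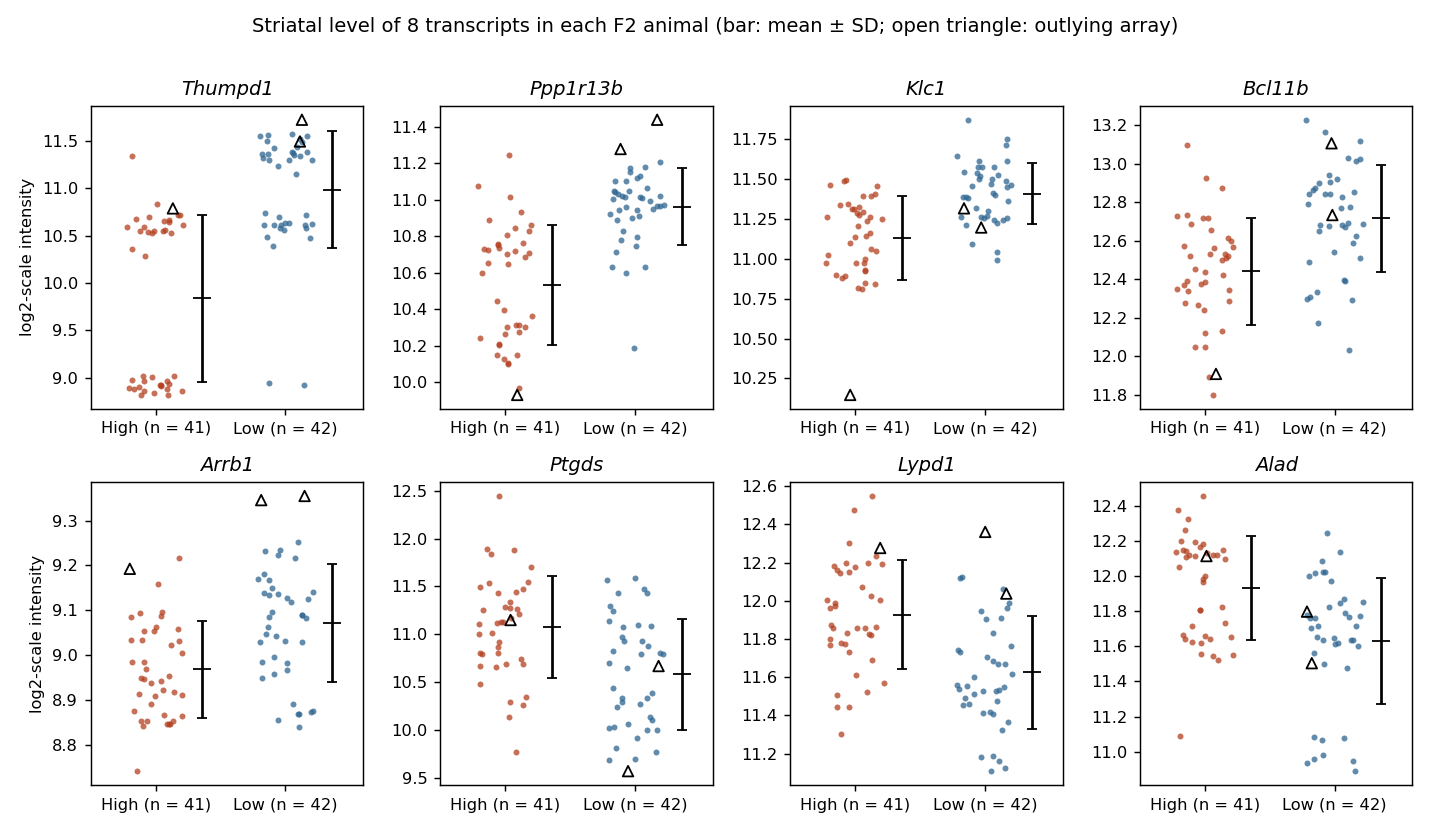
Level of 8 transcripts (log2-scale intensity, vertical axis) in each F2 High and Low animal, 1 point per array, with the mean and SD of each line at its right and the 3 outlying arrays as open triangles. Thumpd1 lies at 3 separate levels, the other 7 transcripts overlap between the lines, and for Klc1 the High array at 10.15 is outlying.

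Wide gaps between neighbouring values were also seen in Alad and Fcer1g. Alad, an early enzyme of haem synthesis, had an empty gap of 0.38, with 8 Low and 1 High animals at or below 11.09 and the remaining 40 High and 34 Low at or above 11.48. Fcer1g, the signalling chain of Fc receptors on microglia and other myeloid cells, had a gap of 0.42, with 21 High and 10 Low animals at or below 9.06. It was above background in only 21 High and 32 Low animals. The next largest gaps in a named transcript were 0.26 in Hbb-bt, with 3 Low animals above it, and 0.22 in Lyplal1, with 1 High and 2 Low animals below it. Gaps were ranked by width alone, and a narrower gap could part the lines more unevenly. In Ppp1r13b a gap of 0.15 had 19 High and 1 Low animals below it.

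Thumpd1 lay at the end of a run of neighbouring genes on chromosome 7 in which the called genes were all lower in High animals. Of 24 expressed genes in this run, 7 differed, which are in order Far1, Copb1, Rps15a, Smg1, Tmc7, Ccp110 and Thumpd1. Smg1, a kinase of nonsense-mediated mRNA decay, ran from 10.25 to 11.21 in High (median 10.85) and from 10.64 to 11.52 in Low (median 11.08). Its difference was −0.22 (SE 0.04, adjusted p = 0.00179), and the lines overlapped. Rps15a, a protein of the small ribosomal subunit, was lower by 0.24 (SE 0.05, adjusted p = 0.00187), and Ccp110, which caps centrioles, by 0.23 at 1 of 3 probes (SE 0.05, adjusted p = 0.00433), with the other Ccp110 probes at 0.02. Copb1, a coat protein of Golgi vesicles, and Far1, an enzyme of ether lipid synthesis, differed by −0.11 and −0.13. Copb1 was above background in 24 of the 41 High and 36 of the 42 Low animals. Without the outlying arrays 8 genes of this run differed, and the gene gained, Spon1, a secreted matrix protein, went the other way and was higher in High (0.20, SE 0.05, adjusted p = 0.0344).

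A second and longer run on chromosome 7 held 14 called genes of 90 expressed, 13 of them lower by the probe of largest difference. Mrpl48, a protein of the large mitochondrial ribosomal subunit, ran from 10.28 to 11.60 in High (median 10.92) and from 10.37 to 11.83 in Low (median 11.23). It was lower by 0.38 (SE 0.08, adjusted p = 0.00650), a second probe was lower by 0.37 (adjusted p = 0.00884), and another at −0.14 did not pass (adjusted p = 0.123). Dgat2, which completes triglyceride synthesis, ran from 11.52 to 12.76 in High (median 12.11) and from 11.68 to 13.05 in Low (median 12.51), and was lower by 0.34 (SE 0.07, adjusted p = 0.00472). Rps3, another small ribosomal subunit protein, was lower by 0.31 at one probe (SE 0.07, adjusted p = 0.0175), whereas its other probe stood at 0.13 with an SE of 0.12. The lines overlapped in all of these transcripts, with most High animals below the Low median (34 of 41 for Mrpl48 and Rps3, 35 of 41 for Dgat2).

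Arrb1, which encodes β-arrestin 1 and so ends the signalling of activated G protein-coupled receptors, also lay in this run. The brighter of its called probes ran from 9.53 to 10.19 in High (median 9.88) and from 9.74 to 10.30 in Low (median 9.98). It was lower by 0.10 (SE 0.03, adjusted p = 0.0513), while 3 more stood at −0.02 to −0.05 and did not pass. A dimmer probe was also called (adjusted p = 0.0348), but it was above background in only 13 of the 41 High and 28 of the 42 Low animals. The difference was small, 1.07-fold, in overlapping groups. Trim3, a ubiquitin ligase of neurons, went in opposite directions by probe, at −0.15 (SE 0.04, adjusted p = 0.0514) and 0.09 (SE 0.03, adjusted p = 0.0579), with the remaining probe at 0.01. No direction is therefore given for the gene. Olfml1 was the member higher in High (0.15, SE 0.04, adjusted p = 0.0994).

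Hbb-bt, a β-globin gene, was the member of that run with the largest difference. Its level ran from 9.001 to 10.74 in High (median 9.75) and from 9.17 to 12.08 in Low (median 10.26). High animals were lower by 0.47 (SE 0.12, adjusted p = 0.0265), and 10 Low animals lay above the highest High animal. Globin copies are nearly identical in sequence, so the probe may not separate them. Of the other red blood cell genes, Hbb-b2 stood at 0.24 (SE 0.11), Hba-a1 at −0.27 (SE 0.12) and Alas2 at −0.09 (SE 0.03), none past the threshold. The mean level of the 7 red blood cell probes ran from 9.59 to 10.23 in High and from 9.57 to 10.87 in Low. With marker levels as terms the difference of Hbb-bt was −0.32 (adjusted p = 0.111), and −0.50 (adjusted p = 0.00653) once called genes were taken out of the marker lists.

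On chromosome 12 a run held 9 called genes of 81 expressed, and among them was the smallest p of the comparison. Ppp1r13b, which encodes a p53-binding protein that favours apoptosis, ran from 9.93 to 11.24 in High (median 10.65) and from 10.19 to 11.44 in Low (median 10.998). It was lower by 0.43 (SE 0.06, 1.35-fold, adjusted p = 2.72e-06), with 38 of 41 High animals below the Low median. Its other probes stood at 0.03 and −0.04 and did not pass, so the difference rests on 1 of 3 probes. Klc1, a light chain that couples kinesin-1 to its cargo, was lower at 3 of 5 probes. The probe of smallest p ran from 10.15 to 11.49 in High (median 11.16) and from 10.99 to 11.87 in Low (median 11.41), a difference of −0.28 (SE 0.05, adjusted p = 0.000919). The brightest probe differed by −0.55 (SE 0.11, adjusted p = 0.00243) and by −0.49 without the outlying arrays. Another was at −0.23 (SE 0.04, adjusted p = 0.00187), and the remaining probes stood at −0.17 and 0.02. Only the former of these passed without the outlying arrays (adjusted p = 0.0802).

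Bcl11b, a zinc finger transcription factor needed for the maturation of striatal spiny neurons, lay in the same run. It ran from 11.80 to 13.10 in High (median 12.45) and from 12.03 to 13.23 in Low (median 12.75). High animals were lower by 0.28 (SE 0.06, 1.21-fold, adjusted p = 0.00737), 38 of 41 of them below the Low median, in groups that overlapped. Rapgef5, an exchange factor for Rap GTPases, was lower by 0.19 (SE 0.03, adjusted p = 0.000919). Serpina3n, a serine protease inhibitor that reactive astrocytes make, went the other way. It ran from 9.23 to 10.71 in High (median 9.87) and from 9.25 to 10.31 in Low (median 9.52), and was higher by 0.32 (SE 0.08, adjusted p = 0.0218), with 8 High animals above the highest Low animal.

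**Figure D2:**
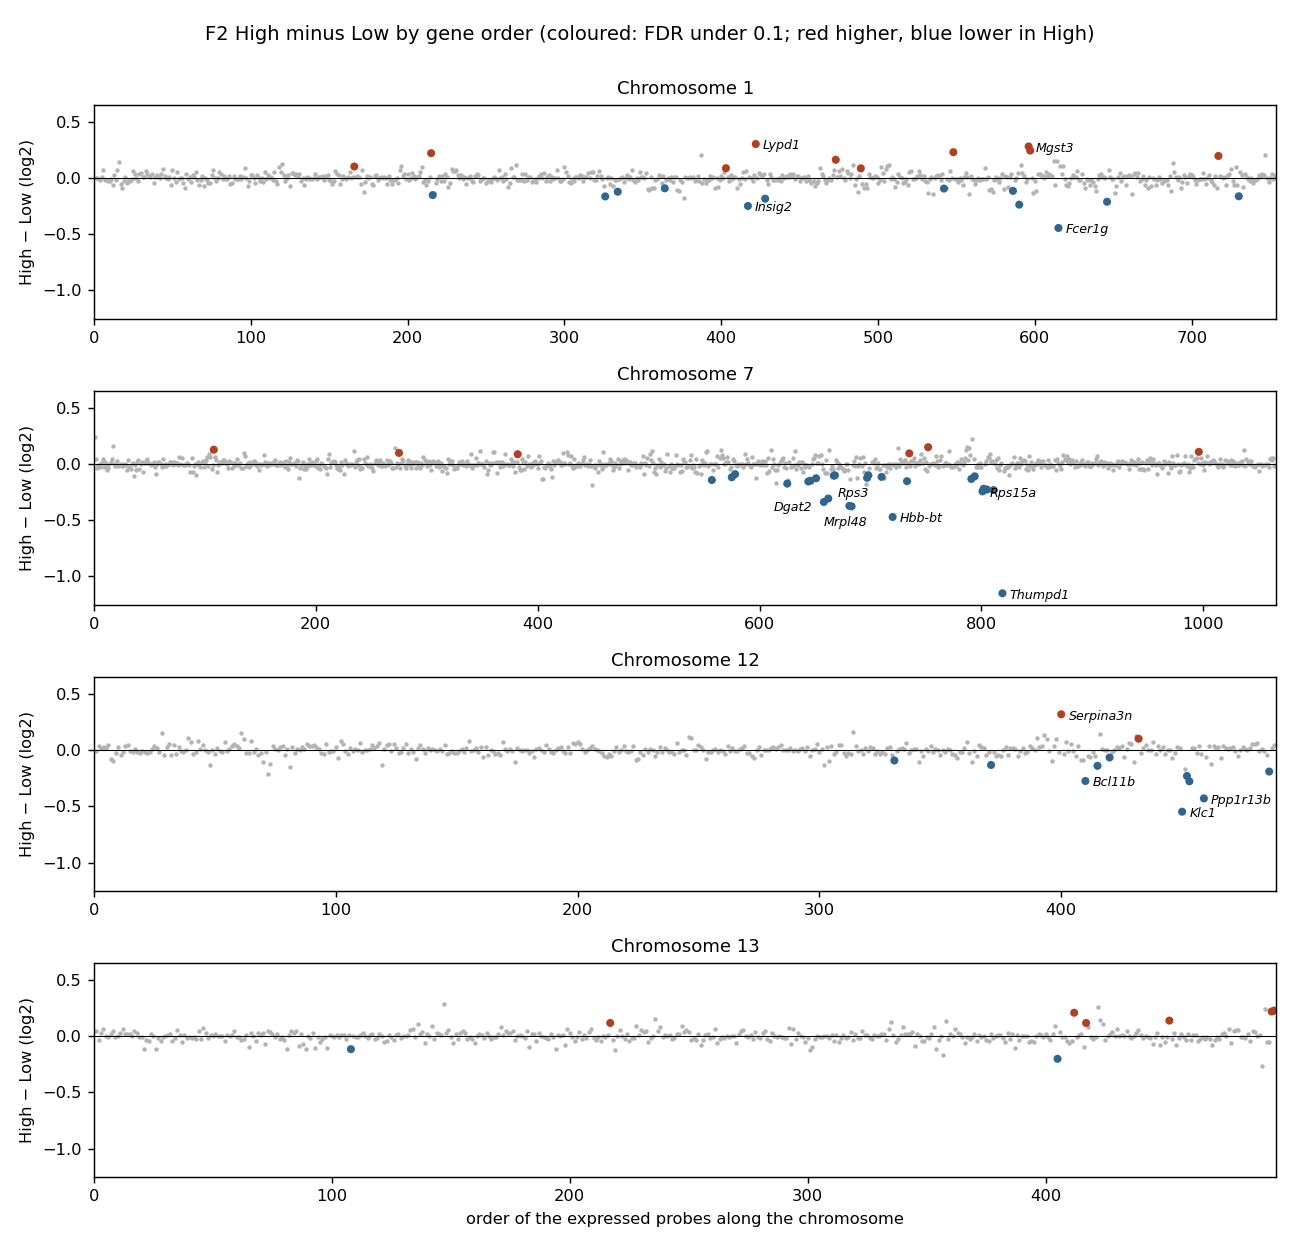
High minus Low difference (log2, vertical axis) of every expressed probe in gene order along chromosomes 1, 7, 12 and 13, with probes past a false discovery rate of 0.1 coloured red (higher in High) or blue (lower) and the larger ones named. The called probes of chromosomes 7 and 12 crowd into part of the chromosome, and most lie below 0.

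Chromosomes 1, 7, 12 and 13 had the largest shares of called probes. Together they held 73 of the 133 called probes that could be placed (54.9%), against 19.5% of the placed probes tested. These 4 were picked by their share of these same calls, which fixed an excess in advance. Nothing is therefore read from that contrast. The share was 2.92% on chromosome 1 (22 probes), 2.91% on chromosome 7 (31 probes, 25 of them lower), 2.46% on chromosome 12 (12 probes) and 1.61% on chromosome 13 (8 probes). Without the outlying arrays, in a fit that shares all its arrays with the first, these 4 held 47.5% of the placed calls. Chromosomes 17 and 18 had none called, and 3 and 2 without the outlying arrays. Over the genome 61 of the 126 genes with a call (48.4%) lay in 12 runs of at least 3 called genes with no more than 20 expressed genes between neighbours. Of all placed genes 1.22% were called, which is a different measure. The share of called genes that scattered calls would place in such runs was not worked out. These runs are a description, with no test.

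**Figure D3:**
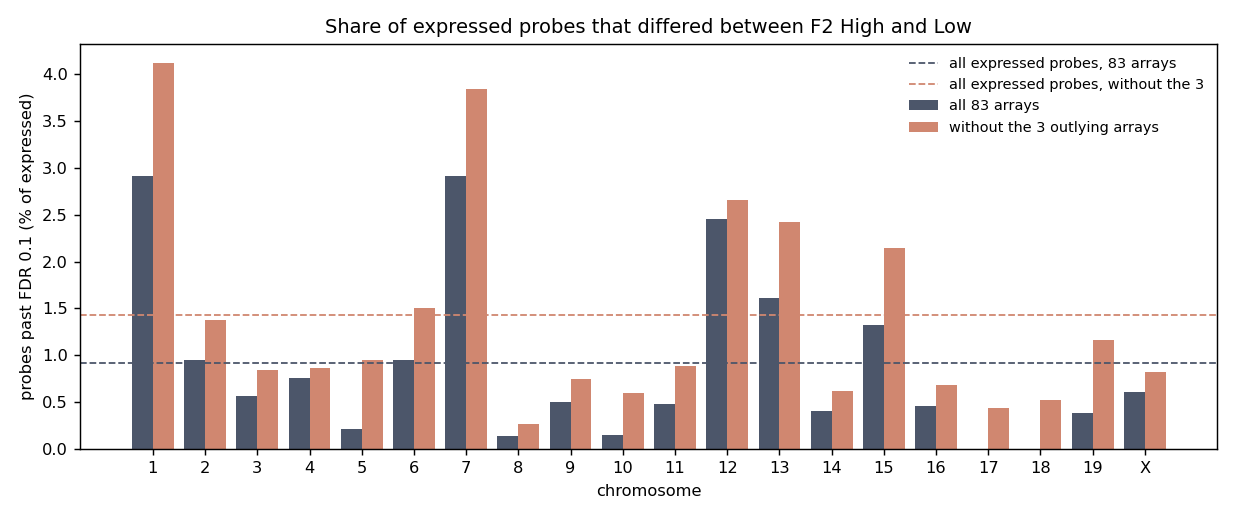
Share of expressed probes past a false discovery rate of 0.1 (percent, vertical axis) on each chromosome, with all 83 arrays and without the 3 outlying arrays, and the shares over all expressed probes as dashed lines. Chromosomes 1 and 7 reach 2.92% and 2.91% with all arrays, and 17 and 18 have none.

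Many, but not all, transcripts of genes in the same run were related among animals of the same line. The 4 genes of largest difference in each of the 2 longest runs were correlated within lines, giving 56 relations. Pairs from the same run had a median absolute Pearson r of 0.50 in High and 0.42 in Low, against 0.14 and 0.30 for pairs of which one gene lay on chromosome 7 and the other on chromosome 12. An adjusted p under 0.05 (permutation test of r) was found for 8 of 12 same-run pairs in High and 7 of 12 in Low. For the other pairs it was 1 of 16 and 4 of 16. Among the latter in both lines was Dgat2 with Bcl11b (r = 0.45 in High and 0.48 in Low, adjusted p = 0.0119 and 0.00524). Its rho was 0.37 and 0.34 (adjusted p = 0.0507 and 0.0731). Mrpl48 and Dgat2 had r = 0.77 and rho = 0.76 in High (permutation test, adjusted p = 0.00014 and 0.000187), and r = 0.68 and rho = 0.69 in Low (adjusted p = 0.00014 and 0.00028). Without the 2 animals farthest from the median these were 0.76 and 0.66. Serpina3n and Bcl11b, on chromosome 12, were related inversely, with r = −0.49 and rho = −0.48 in High (adjusted p = 0.0047 and 0.0082) and r = −0.49 and rho = −0.48 in Low (adjusted p = 0.00524 and 0.00795). Leaving out the 2 farthest animals gave −0.52 and −0.51. Klc1 and Bcl11b were not related beyond the spread in either line (r = −0.04 in High and −0.05 in Low, and −0.31 and −0.05 without the 2 farthest animals). Of the pairs across chromosomes the strongest was Dgat2 with Ppp1r13b in Low, with r = 0.53 and rho = 0.41 (permutation test, adjusted p = 0.00266 and 0.0252). In High this pair had r = 0.05 and rho = 0.05. The other relations of Ppp1r13b enter only the medians and the counts of pairs.

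Genes of chromosome 1 differed in both directions. Lypd1, a small membrane protein that binds nicotinic acetylcholine receptors, ran from 11.30 to 12.55 in High (median 11.88) and from 11.11 to 12.36 in Low (median 11.56). It was higher by 0.30 (SE 0.06, adjusted p = 0.00509), with 36 of 41 High animals above the Low median. Its neighbour Insig2, which holds back the sterol sensor of the endoplasmic reticulum, was lower by 0.25 (SE 0.06, adjusted p = 0.00884) at one probe, and its other probe stood at 0.06. Mgst3, a microsomal glutathione transferase, ran from 10.94 to 11.97 in High (median 11.58) and from 10.70 to 11.83 in Low (median 11.27). It was higher at both probes, by 0.28 (SE 0.06, adjusted p = 0.00489) and 0.24 (SE 0.06, adjusted p = 0.0512). Fcer1g, in the same run as Mgst3, was lower by 0.45 (SE 0.12, adjusted p = 0.0719). It was above background in 21 of the 41 High animals and 32 of the 42 Low animals. Fam20b, a kinase of glycosaminoglycan synthesis, was higher by 0.23 (SE 0.06, adjusted p = 0.0314), and Myl1, a myosin light chain of fast muscle, by 0.22 (SE 0.04, adjusted p = 0.00364). Myl1 was above background in 32 High and 16 Low animals.

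On chromosome 13 F2r, the thrombin receptor, ran from 9.62 to 10.76 in High (median 9.995) and from 9.75 to 10.61 in Low (median 10.26), and was lower by 0.20 (SE 0.05, adjusted p = 0.0138). Nearby, Ercc8, which acts in transcription-coupled DNA repair, was higher by 0.14 at 1 of 2 probes (SE 0.03, adjusted p = 0.00271), where 10 High animals exceeded the highest Low animal, and its other probe stood at −0.03. Enc1, a neuronal actin-binding protein, was higher by 0.21 (SE 0.06, adjusted p = 0.0766), and Zfp131, a zinc finger protein, by 0.23 and 0.22 at both probes (adjusted p = 0.0719 and 0.0771). Of the 83 fits that each left out 1 array, 19 lost the call of Enc1, and 9 and 20 lost those of the Zfp131 probes.

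Other chromosomes held shorter runs. On chromosome 2 Ptgds, Entpd2 and Uap1l1, 3 of 6 expressed genes, were all higher. Ptgds encodes the prostaglandin D synthase of the meninges, choroid plexus and oligodendrocytes. It ran from 9.78 to 12.44 in High (median 11.13) and from 9.57 to 11.59 in Low (median 10.66), and was higher by 0.49 (SE 0.12, 1.41-fold, adjusted p = 0.0242), with 34 of 41 High animals above the Low median. Ptgds was the only 1 of 11 probes of leptomeningeal markers past the threshold. The list had a median difference of 0.06 with all 11 positive, and its mean level ran from 9.51 to 10.37 in High and from 9.41 to 10.13 in Low. The defining markers Dcn and Slc6a13 stood at 0.04 and 0.01, and the choroid plexus marker Ttr at 0.42 with an SE of 0.52. With marker levels as terms Ptgds differed by 0.17 (adjusted p = 0.662). Once the called genes, Ptgds among them, were taken out of the marker lists it differed by 0.45 (adjusted p = 0.0657). Uap1l1, an enzyme-like relative of a UDP-sugar pyrophosphorylase, was higher by 0.22 (SE 0.04, adjusted p = 0.00472), and Entpd2, which breaks down extracellular ATP, by 0.16 (SE 0.04, adjusted p = 0.0266). With marker levels as terms, Ptgds among them, neither passed, at 0.13 for Uap1l1 (adjusted p = 0.228) and 0.11 for Entpd2 (adjusted p = 0.345). Once called genes were taken out of the marker lists Uap1l1 passed, at 0.20 (adjusted p = 0.0106).

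Alad, on chromosome 4, ran from 11.09 to 12.45 in High (median 12.05) and from 10.89 to 12.24 in Low (median 11.71). It was higher by 0.30 (SE 0.07, adjusted p = 0.0177), and its neighbour Hdhd3, a phosphatase-like protein, by 0.17 (SE 0.04, adjusted p = 0.00801). On chromosome 3 Trim59, a ubiquitin ligase, was lower by 0.34 (SE 0.09, adjusted p = 0.0579), and was above background in 30 High and 36 Low animals. Gucy1a1, a subunit of the nitric oxide receptor guanylyl cyclase that spiny neurons express strongly, was lower by 0.23 at 1 of 3 probes (SE 0.06, adjusted p = 0.0276). The other Gucy1a1 probes stood at −0.14 (adjusted p = 0.124) and −0.05 (adjusted p = 0.831). The called probe ran from 9.70 to 10.66 in High (median 10.17) and from 9.93 to 10.82 in Low (median 10.44). On chromosome 15 Atf4, the transcription factor of the integrated stress response, was lower by 0.27 (SE 0.08) at an adjusted p of 0.0994, a call lost when Low_879 alone was left out.

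A check of probes against each other could be made for 43 of the 126 genes with a call, which had 72 further expressed probes. Of these, 6 were also called in the same direction, 1 was called in the opposite direction (Trim3), 49 were not called and had the same sign, and 16 were not called and had the opposite sign. The remaining 83 genes had 1 expressed probe each. Probe sequences were not available here. Variants between the founder strains under a probe were therefore not examined for any gene.

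No expressed transcript listed for the system on which haloperidol acts passed the threshold, but several of its genes had no expressed probe. Drd2, the D2 dopamine receptor, ran from 10.73 to 12.01 in High (median 11.46) and from 10.87 to 12.18 in Low (median 11.57). Its difference was −0.12 (SE 0.07, adjusted p = 0.666). Drd1, the D1 receptor of the direct pathway, ran from 12.74 to 13.81 in High (median 13.34) and from 12.78 to 13.89 in Low (median 13.42), a difference of −0.12 (SE 0.05, adjusted p = 0.440). Tac1, the substance P precursor of direct pathway neurons, stood at −0.05 (SE 0.06) and Th, the rate-limiting enzyme of dopamine synthesis, at −0.02 (SE 0.02). Th was dim, at medians of 9.12 in High and 9.16 in Low, and was above background in 36 High and 39 Low animals. Adora2a and Penk had no named probe in the table used here. Unadjusted permutation tests gave p = 0.0234 for Drd1, 0.0968 for Drd2, 0.382 for Tac1 and 0.439 for Th. None of the 6 dopamine probes, the 4 probes of D2 neurons or the 9 of D1 neurons passed, at list medians of −0.03, −0.10 and −0.0001, and all 4 probes of D2 neurons were negative. These covered 6 of 13 dopamine genes, 4 of 8 D2 neuron genes and 7 of 9 D1 neuron genes. An unadjusted p under 0.05 (limma) was found for 1, 2 and 1 probes of these lists, against 8.76% of all expressed probes.

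Of the 733 probes in the gene lists, 24 were called (3.27%, against 0.922% of all expressed probes). The lists were chosen with the called genes known, so nothing is read from that share. Bcl11b was the only 1 of 24 shared spiny neuron probes, where the median was −0.04 and 19 were negative. Levels of this list overlapped between the lines, from 11.65 to 12.32 in High and from 11.64 to 12.35 in Low, and Drd1, Drd2 and Tac1 were above background on all 83 arrays, so markers of the labelled tissue were present in both lines. Of 70 probes for cAMP and G protein signalling only the pair of Arrb1 probes passed, and DARPP-32 (Ppp1r1b), the phosphatase inhibitor through which dopamine acts, stood at 0.07, −0.04 and −0.06. Of 14 probes of GABA interneurons and GABA synthesis Npy was higher (0.16, SE 0.04, adjusted p = 0.0719). None of the cholinergic, GABA receptor, glutamate receptor, immediate early gene, astrocyte, oligodendrocyte, choroid plexus, cortical glutamatergic, sex-linked, mitochondrial import or MHC class I probes passed.

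Of 58 probes of kinesin, dynein and dynactin genes 5 were called (8.62%, against 0.922% of all expressed probes), all lower, which were 3 of Klc1, Kif21a and Kif1a. This list too was chosen with the called genes known, so nothing is read from its share or its direction. Kif21a, a kinesin that restrains microtubule growth, ran from 10.50 to 11.66 in High (median 11.01) and from 10.85 to 11.80 in Low (median 11.29), and was lower by 0.24 (SE 0.05, adjusted p = 0.00581). Kif1a, which carries synaptic vesicle precursors, was lower by 0.09 (SE 0.02, adjusted p = 0.0373). Without the outlying arrays 8 were lower, with Kif5a, Kifap3 and one more probe of Klc1. The median of the list was −0.01, and 26 of the 58 were positive. Of 100 mitochondrial ribosomal probes 6 were called (6%, against 0.922% of all expressed probes), 4 higher and 2 lower, the latter both of Mrpl48. The higher ones were Mrps27 (0.12), Mrps24 (0.11), Mrpl13 (0.08 at 1 of 3 probes) and Mrps35 (0.08). Of the 100, 70 were positive at a median of 0.02, against 48.95% positive over all expressed probes. The same holds for the choice of this list, so nothing is read from its share or its signs. Other lists had 1 or 2 calls, which were Fcrls of 15 microglial probes (−0.15, SE 0.04, adjusted p = 0.0832), Egfl7 of 22 endothelial and mural probes (0.22 at 1 of 3 probes), both Mgst3 probes of 53 for glutathione and carbonyl detoxification, Pip4k2a of 46 phosphoinositide probes (0.24), Thumpd1 of 64 tRNA modification probes and Ppp1r13b of 34 p53 pathway probes.

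**Figure D4:**
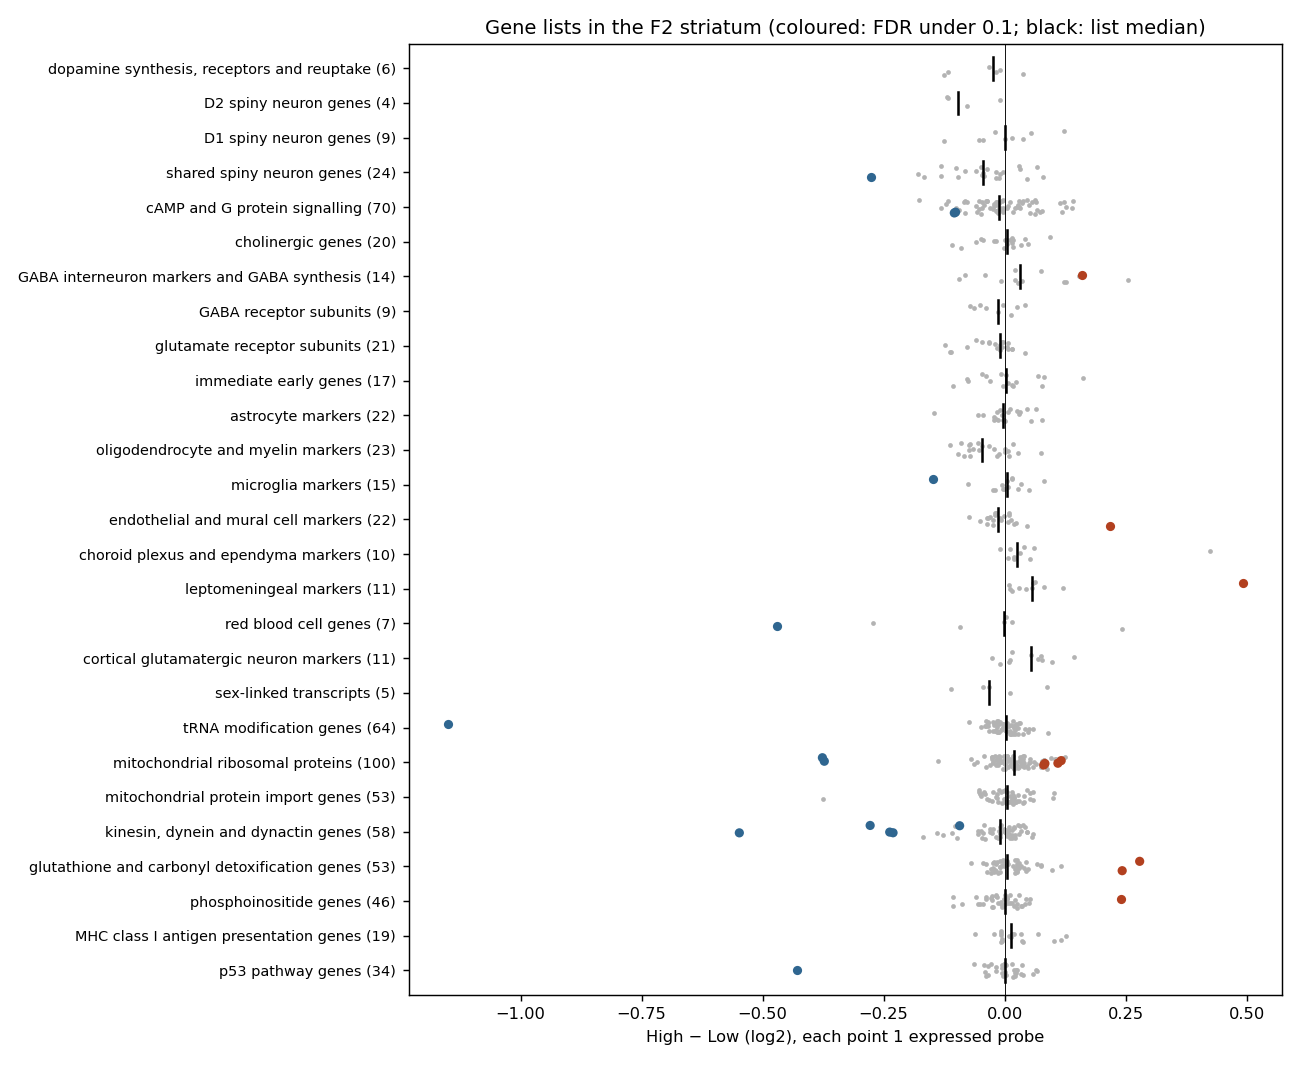
High minus Low difference (log2, horizontal axis) of each expressed probe in 27 gene lists, whose number of probes is in parentheses, with probes past a false discovery rate of 0.1 in red (higher in High) or blue (lower) and the list median as a black bar. List medians lie between −0.10 and 0.06. The kinesin, dynein and dynactin list has 5 calls, all lower, and the mitochondrial ribosomal list has 4 higher and 2 lower. Every other list has 2 calls or fewer.

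The F2 difference was set against that of the HS-CC selection, 48 High and 48 Low animals bred in the same way from a stock of the Collaborative Cross founder strains. Of the 14547 probes expressed in both, 329 (2.26%) differed in their High minus Low difference between the selections (interaction term, limma). Of the 141 F2 calls, 138 were expressed in HS-CC and 51 passed the interaction. Of the 138, 63 had the same sign in both selections and 75 the opposite sign, some of them with an HS-CC difference near 0. Within HS-CC itself 516 of 15119 probes were called (3.41%), and 10 of the 138 were among them. Of those 10 only Thumpd1, Ints7 and Far1 did not pass the interaction. For the other 7, both Mgst3 probes among them, the HS-CC difference was opposite in sign. The 138 were picked for their F2 difference in these same arrays, which favours passing the interaction, and opposite calls favour it further. Nothing is therefore read from these counts. The Thumpd1 difference was −1.14 in F2 and −0.61 in HS-CC (interaction adjusted p = 0.207). Pip4k2a, which phosphorylates a phosphoinositide, went from 0.25 in F2 to −0.34 in HS-CC (interaction adjusted p = 7.74e-05). Ppp1r13b stood at −0.44 in F2 and 0.04 in HS-CC (adjusted p = 1.54e-06), and Klc1 at −0.55 and 0.04 at its brightest probe (adjusted p = 0.000381). Bcl11b stood at −0.28 and 0.02, a difference that did not pass (adjusted p = 0.157).

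**Figure D5:**
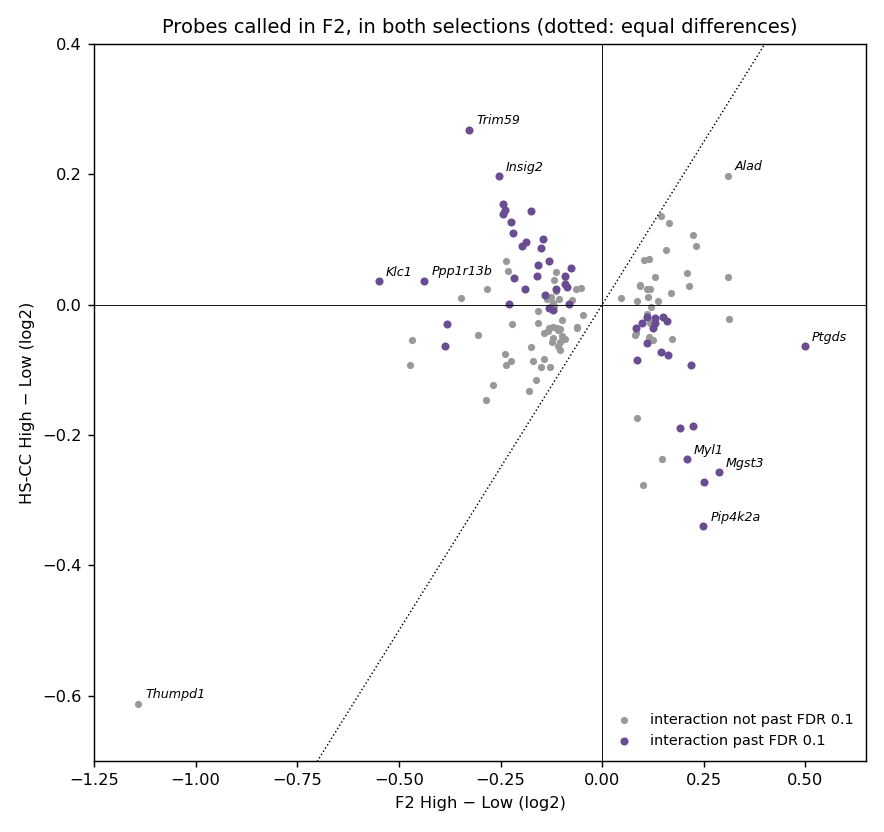
High minus Low difference (log2) in F2 (horizontal axis) and HS-CC (vertical axis) of the 138 probes called in F2 and expressed in both, purple where the interaction passed a false discovery rate of 0.1. Thumpd1 lies low on both axes, whereas Trim59, Mgst3, Pip4k2a and Myl1 lie on opposite sides of 0 in the 2 selections.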

How the data were processed

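Values were the deposited log2-scale intensities, which the authors made from Illumina bead arrays with lumi and quantile normalization within each selection; repeating that step moved no F2 value by more than 0.00016. Whether log2 or a variance-stabilizing transformation was used, and the genome build, are not given in the sources used here, and on some scales dim probes show smaller differences. Background detection p-values were not used; 1341 receptor probes set the background. Symbols came from the platform annotation (23978 probes with 1 symbol, 1719 with none), and 23962 were looked up in a gene table for chromosome and gene order only. The outlying arrays stayed in, and an alternative dropped them. High minus Low was fitted with limma 3.58.1 (lmFit, eBayes) in R 4.3.3 without covariates, with Benjamini-Hochberg adjustment over all expressed probes and a false discovery rate of 0.1. For the interaction, F2 and HS-CC arrays were quantile normalized together and fitted as 4 groups. Permutation tests used 100000 resamples and were two-sided. Figures were drawn with matplotlib 3.10.9.

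Genes named were the 12 highest and 12 lowest called differences, genes with 2 or more called probes, called list members, 4 target genes with probes, leading genes of chromosomes 1, 7, 12 and 13, and genes called in F2, HS-CC and the interaction. Other run members, the genes lost or gained without outlying arrays, Gucy1a1 and Hdhd3 were chosen after their values were seen. The comparison and the gene lists were chosen with earlier results of these data known. On simulated data over 15300 probes, planted log2 differences of 0.1, 0.2, 0.3 and 0.5 were recovered in 64%, 96%, 94% and 100% of cases, with 20 false of 197 calls. How far these values hold for the measured arrays, some of which may be from siblings, was not tested. The number of arrays limits the precision. Alternatives covered array removal, probe filters, normalization, variance models, sex-linked and marker levels as terms, and, chosen after seeing the data, marker lists without called genes.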

Additional observations from a re-analysis of the deposited data

Results flagged for a closer look

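These transcripts were named above and had a High minus Low difference in F2 that departed from that in HS-CC (interaction term, limma, false discovery rate 0.1). All were calls in F2, and that choice favours such a departure. Values are the F2 difference minus the HS-CC difference on the log2 scale. On chromosomes 7 and 12 the departures were −0.35 and −0.32 for the 2 called probes of Mrpl48 and −0.47 for Ppp1r13b. Klc1 departed by −0.59 and −0.23 at 2 of its 3 called probes. For each of these probes the HS-CC difference lay between −0.06 and 0.04. The Klc1 probe of smallest p in F2 did not pass the interaction (−0.14, adjusted p = 0.598). It stood at −0.15 in HS-CC, where it was not called. Egfl7 departed by 0.31, and Ptgds by 0.56 (adjusted p = 0.0963), a call lost without the outlying arrays (adjusted p = 0.129). No other departure given here was lost without them.

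High animals differed from Low in opposite directions, past the threshold in each selection, for Trim59 (−0.60), Sfi1 (−0.32), Lyplal1 (0.38), Fam20b (0.41), Mgst3 (0.52 and 0.54) and Pip4k2a (0.59). The signs were opposite, with F2 alone past the threshold, for Insig2 (−0.45), Kif21a (−0.38), F2r (−0.29), Fcrls (−0.25) and Myl1 (0.45). Mrps27 departed by 0.13, with an HS-CC difference within its SE of 0 (−0.02, SE 0.02). Egfl7 and Ptgds, given above, stood at −0.09 and −0.06 in HS-CC and were not called there.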

How the results depend on the processing

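No paired analysis was possible because F2 High and Low animals share no number. The 141 probes became 72 (23 higher, 49 lower) at a false discovery rate of 0.05, 219 (97 higher) without the 3 outlying arrays, 232 (157 lower) without High_651 alone, 339 (152 higher, 187 lower) in the 71 arrays left when removal was repeated, and 617 (270 higher, 347 lower) with array weights, 140 of the 141 among these. Leaving out each array in turn gave 109 to 232 probes, 37 to 75 higher and 70 to 157 lower. Fewer than 54 were higher with all probes tested (34 of 102) and with marker levels as terms (30 of 96, 69 of the 141 kept). Taking called genes out of the marker lists gave 130, with 100 of the 141. The interaction count of 329 became 517 without outlying arrays and 212 at a false discovery rate of 0.05.

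The alternatives were run on 47 probes of the named transcripts, 3 to 4 of which stricter filters dropped, and none of the 47 changed direction where tested. Marker levels as terms ended 17 of these calls, among them Ptgds, Egfl7 (adjusted p = 0.522), Pip4k2a (0.460), Serpina3n (0.241) and Alad (0.145), against 10 with called genes taken out. In that latter fit Ptgds (adjusted p = 0.0657), Egfl7 (0.0994), Pip4k2a (0.0585), Serpina3n (0.0868) and Alad (0.0265) all passed. Atf4 was lost in 55, Mrps24 in 47, Sfi1 in 45, Lyplal1 in 38 and Fcrls in 31 of the 83 fits without 1 array. The causes were not tested. With the sex-linked level as a term all 141 remained.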
